A study of Saccharomyces cerevisiae with 6 samples.

Results

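The genes described here are 48 genes of *S. cerevisiae* that make or remodel phospholipids, fatty acids and sphingolipids. They were taken as a named list of pathway genes and were found by symbol in the annotation of the array. Of the 5449 genes measured, they are 23 phospholipid genes, 7 fatty acid genes and 18 sphingolipid genes, and each has 1 probe set, a group of probes read as 1 value. All 48 lay above the background of the array in all 6 arrays, so no member was lost to a filter on dim signal. On each array 98.8% to 99.2% of all *S. cerevisiae* probe sets lay above it, so this check sets no member apart.

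RNA came from the haploid strain BY4742, an alpha mating type derivative of S288C that carries the *his3Δ1*, *leu2Δ0*, *lys2Δ0* and *ura3Δ0* alleles in every group. Cultures were grown for 24 h in YPD, a rich glucose medium, and then for another 24 h with 0.27 mg/L nystatin and 100 mg/L CdS QDs, with 0.27 mg/L nystatin alone, or in fresh YPD with neither (the untreated control), and each has 2 arrays. The nystatin dose is that of the sample labels, and the methods give a slightly lower one. Nystatin is a polyene that binds ergosterol in the fungal membrane, and it was added to help the cadmium sulphide quantum dots, nanocrystals called CdS QDs, to enter the cell. No group received CdS QDs without nystatin, so the comparison with nystatin alone is the one in which only the CdS QDs differ. The methods describe the 2 arrays of a condition as aliquots of RNA extract, so p-values measure the spread between arrays, which may be technical. In RNA of whole cultures, fewer cells with a transcript and less of it per cell cannot be told apart.

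Yeast builds phosphatidate from glycerol-3-phosphate and sends it either to CDP-diacylglycerol, the precursor of phosphatidylinositol, phosphatidylserine and the phosphatidylethanolamine and phosphatidylcholine made from it, or to diacylglycerol, which feeds storage lipid and the Kennedy pathway that uses free choline and ethanolamine. Many genes of these routes carry an inositol-sensitive element that the Ino2-Ino4 activator binds and the Opi1 repressor counteracts. Sphingolipids start from serine and palmitoyl-CoA, pass through long-chain bases and ceramide, and receive inositol phosphate from phosphatidylinositol, so that the pathways share substrates, and sphingolipids sit with ergosterol in the plasma membrane.

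Values are on the log2 scale of RMA, which gives every array the same distribution, so a change is one relative to the other transcripts, and levels of different probe sets are not compared. The words rose, fell and changed are kept for a Benjamini-Hochberg adjusted p under 0.05 in the limma fit over 5498 probe sets. Member values spanned 5.40 to 11.50, against a background of 1.42 to 1.48. The 2 arrays of a condition differed for the members with an SD of 0.109 log2 units for nystatin + CdS QDs, 0.0766 for nystatin and 0.0703 for the untreated control. Of the genes deleted in this strain, *LYS2* and *URA3* lay below the background on all 6 arrays, and *LEU2* read 2.29 and 1.98 with nystatin + CdS QDs, 1.29 and 1.43 with nystatin, and 1.50 and 1.67 in the untreated control, above it on 4 arrays. Some of these were still called against the control. With nystatin + CdS QDs *LEU2* rose by 0.55 (adjusted p = 0.00319), *LYS2* fell by 0.21 (0.00368) and *URA3* did not pass (0.913). With nystatin *LYS2* fell by 0.20 (adjusted p = 0.0204) and *URA3* by 0.23 (0.0116), and *LEU2* did not pass (0.183). Calls of that size thus occurred for deleted genes at or near the background. *HIS3* read 7.84 to 8.63 (*his3Δ1* removes part of the gene, so a probe set outside that part checks nothing). Alpha-cell genes read 5.22 to 9.61 and a-cell genes 3.57 to 6.48, so the ranges overlap and the a-cell genes too lay above the background on all 6 arrays. These markers also moved with treatment. With nystatin + CdS QDs against the control all 4 alpha-cell genes rose, by 0.24 to 3.33. Of the 6 a-cell genes 2 rose and 3 fell (all probe sets: 36.5% rose and 38.9% fell). The 3' minus 5' signal of 7 control genes was 1.58 on both nystatin + CdS QDs arrays, 1.45 on both nystatin arrays, and 1.47 and 1.41 on the untreated control arrays. The part of this difference in the results below was not tested.

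With nystatin + CdS QDs against the untreated control, 17 of the 48 members rose (all probe sets: 36.5%) and 21 fell (all probe sets: 38.9%), while 10 did not pass the test. The members as a whole were thus called about as often as any transcript on the array, and the description below turns on which step went which way. Their median log2 fold change was -0.03, against -0.01 over all probe sets, and the median size was 0.41 against 0.33. Phospholipid genes divided into 8 that rose, 10 that fell and 5 that did not pass, sphingolipid genes into 8, 6 and 4, and fatty acid genes into 1, 5 and 1. The 5 falls among fatty acid genes became 3 without untreated control replicate 1, and 3 with no moderation of the variance, since *ACC1* and *FAA3* were then lost. Changes of at least 0.5 log2 units were called for 19 members (all probe sets: 33.4%). A fall of at least 1 log2 unit with an unadjusted p under 0.01 was met by 4 members (all probe sets: 5.15%), which were *OPI3*, *OLE1*, *ITR1* and *GPT2*, and a rise of that size by 0 (all probe sets: 4.95%).

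**Figure D1:**
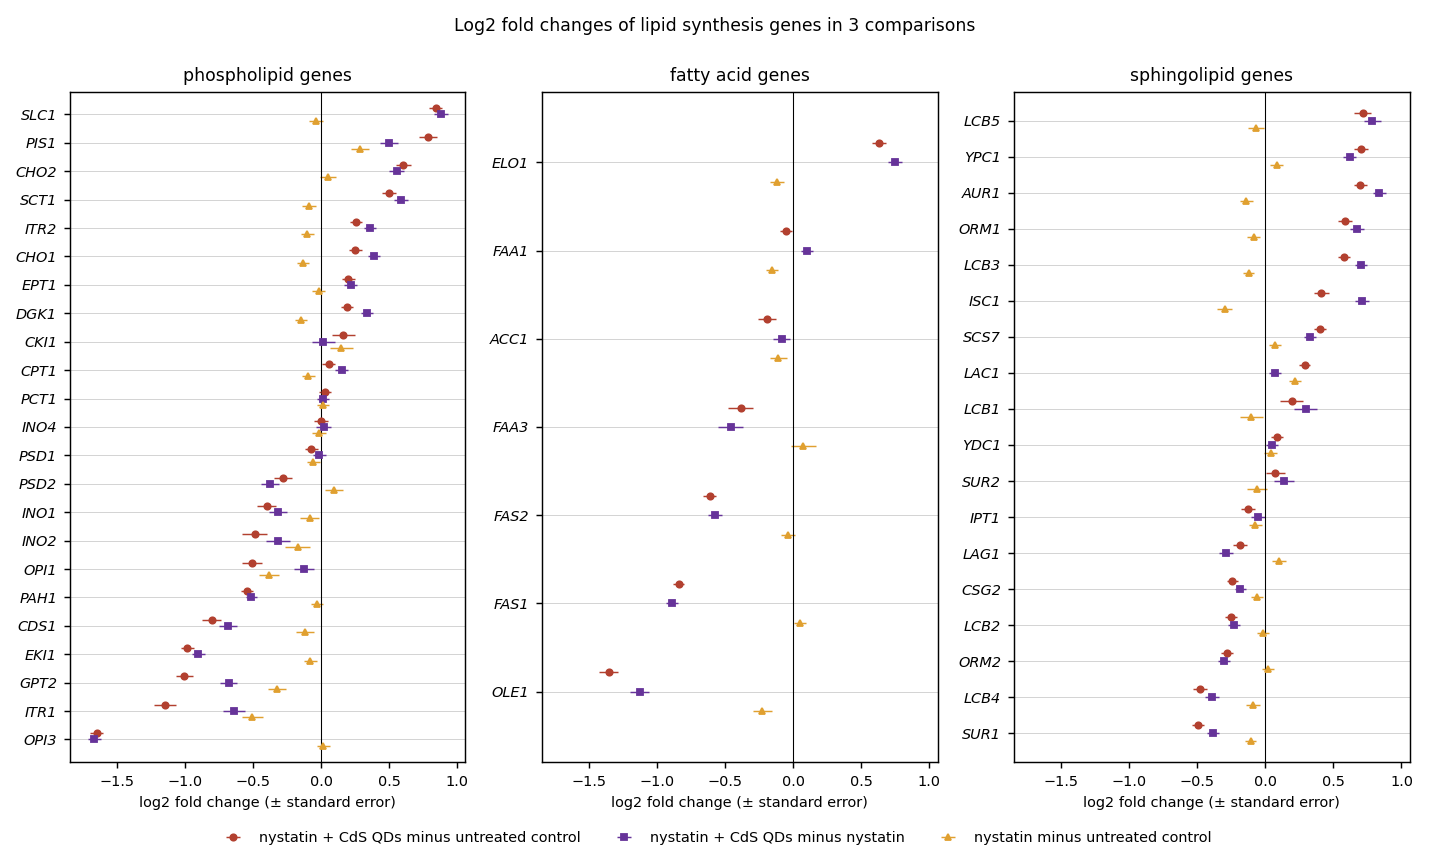
Log2 fold change of each of the 48 genes (x axis, in log2 units, with the standard error of the limma fit as bars) for nystatin + CdS QDs minus untreated control, nystatin + CdS QDs minus nystatin and nystatin minus untreated control. The first series runs from -1.65 for *OPI3* to 0.84 for *SLC1* and the second from -1.67 to 0.88 for the same genes, with *ITR1*, *OPI1*, *GPT2* and *ISC1* among those whose values differ between them, while the third stays between -0.51 and 0.28.

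The lowest log2 fold change of the set belonged to the final methylation steps of phosphatidylcholine synthesis. *OPI3*, the phospholipid methyltransferase of the last steps, read 9.52 and 9.50 with nystatin + CdS QDs, 11.16 and 11.18 with nystatin, and 11.11 and 11.21 in the untreated control. Both arrays with CdS QDs lay far below the other 4, and those of nystatin fell within the range of the control. The fall was 3.14-fold (log2 fold change -1.65 ± 0.05 SE, adjusted p = 4.52e-07), and 3.17-fold against nystatin (-1.67, adjusted p = 4.54e-07). *CHO2*, whose product adds the first methyl group to phosphatidylethanolamine, went the other way. It read 10.29 and 10.24 with nystatin + CdS QDs, 9.65 and 9.78 with nystatin, and 9.66 and 9.67 in the untreated control, a rise of 0.60 ± 0.06 (adjusted p = 6.49e-05). Against nystatin the rise of *CHO2* was 0.55 (adjusted p = 0.000104).

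Upstream of these steps, *CDS1*, the CDP-diacylglycerol synthase, read 6.25 and 6.41 with nystatin + CdS QDs, 7.07 and 6.97 with nystatin, and 7.16 and 7.11 in the untreated control. It fell by 0.81 on the log2 scale (SE 0.07, adjusted p = 3.83e-05). *PIS1*, which joins CDP-diacylglycerol to inositol, had values of 9.77 and 9.94 with nystatin + CdS QDs, 9.33 and 9.39 with nystatin, and 9.04 and 9.11 in the untreated control. Its 3 groups did not overlap, and the gene rose by 0.78 ± 0.07 against the control (adjusted p = 3.77e-05) and by 0.50 against nystatin (adjusted p = 0.000381). *CHO1*, the phosphatidylserine synthase that competes for the same substrate, rose by 0.25 (adjusted p = 0.00194). Of the phosphatidylserine decarboxylases, *PSD2* of the endomembranes fell by 0.28 (adjusted p = 0.00688) and *PSD1* of the mitochondria had a log2 fold change of -0.07 (adjusted p = 0.201). The call on *PSD2* depended on an untreated control array, with an adjusted p of 0.053 without replicate 1, and on the moderation of the variance (0.0576 without it).

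The genes of inositol supply and its regulation did not all go one way. *ITR1*, the major inositol transporter, read 9.24 and 9.48 with nystatin + CdS QDs, 10.02 and 9.98 with nystatin, and 10.51 on both arrays of the untreated control. The groups stood in 3 separate steps, with a 2.22-fold fall against the control (-1.15 ± 0.08, adjusted p = 1.38e-05) and a 1.56-fold fall against nystatin (-0.64, adjusted p = 0.000254). *ITR2*, the minor transporter, read 8.46 on both arrays with nystatin + CdS QDs, 8.10 and 8.11 with nystatin, and 8.24 and 8.17 in the untreated control. It rose, by 0.26 ± 0.04 against the control (adjusted p = 0.00156) and by 0.36 against nystatin (adjusted p = 0.000298). *INO1*, which makes inositol from glucose-6-phosphate, fell by 0.40 (adjusted p = 0.00147). Of the activator pair, *INO2* fell by 0.49 (adjusted p = 0.00208) and *INO4* had a log2 fold change of 0.00 (adjusted p = 0.999). *OPI1*, the repressor, read 8.51 and 8.72 with nystatin + CdS QDs, 8.74 on both arrays with nystatin, and 9.17 and 9.08 in the untreated control. Its arrays under both treatments lay below the control, with a fall of 0.51 against the control (adjusted p = 0.000632), and against nystatin the log2 fold change was -0.13 (adjusted p = 0.162; 0.012 without nystatin + CdS QDs replicate 2).

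The steps around phosphatidate and diacylglycerol also divided. *SCT1* and *GPT2* encode the 2 glycerol-3-phosphate acyltransferases that open the pathway. *SCT1* read 8.62 and 8.59 with nystatin + CdS QDs, 7.98 and 8.06 with nystatin, and 8.15 and 8.07 in the untreated control, and it rose by 0.50 ± 0.05 (adjusted p = 0.000108). *GPT2* read 8.93 and 8.98 with nystatin + CdS QDs, 9.65 and 9.62 with nystatin, and 10.05 and 9.87 in the untreated control. Its groups were again separate, and the fall was 2.01-fold (-1.005 ± 0.06, adjusted p = 1.1e-05). That value sits at the threshold of 1 log2 unit and was -0.92 without untreated control replicate 1 and -0.98 without nystatin + CdS QDs replicate 1. *SLC1*, which adds the second acyl chain to give phosphatidate, had the highest log2 fold change of the 48 members in this comparison. It read 8.95 and 9.00 with nystatin + CdS QDs, 8.14 and 8.05 with nystatin, and 8.13 and 8.14 in the untreated control, a 1.79-fold rise (0.84 ± 0.05, adjusted p = 7.28e-06).

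*PAH1*, the phosphatidate phosphatase that yields diacylglycerol, read 7.51 and 7.54 with nystatin + CdS QDs, 8.04 and 8.03 with nystatin, and 8.06 and 8.08 in the untreated control. It fell by 0.55 (SE 0.04, adjusted p = 2.34e-05), whereas *DGK1*, the diacylglycerol kinase of the reverse step, rose by 0.19 (adjusted p = 0.00678). In the Kennedy pathway a single gene changed by more than 0.5 log2 units. This was *EKI1*, the ethanolamine kinase, at 5.97 and 5.96 with nystatin + CdS QDs, 6.85 and 6.88 with nystatin, and 6.98 and 6.91 in the untreated control, a 1.98-fold fall (-0.98 ± 0.05, adjusted p = 2.58e-06). Its paralog *CKI1*, the choline kinase, read 7.20 and 7.00 with nystatin + CdS QDs, 7.02 and 7.15 with nystatin, and 7.00 and 6.88 in the untreated control. The *CKI1* groups overlapped or touched, with a log2 fold change of 0.16 (adjusted p = 0.114; 0.0224 without nystatin + CdS QDs replicate 2). The 3 genes of the later steps had small values. *EPT1*, an ethanolaminephosphotransferase, rose by 0.20 (adjusted p = 0.00774; 0.0552 without untreated control replicate 1), and the log2 fold changes were 0.02 for *PCT1*, the choline-phosphate cytidylyl transferase, and 0.06 for *CPT1*, the cholinephosphotransferase (adjusted p = 0.619 and 0.325).

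**Figure D2:**
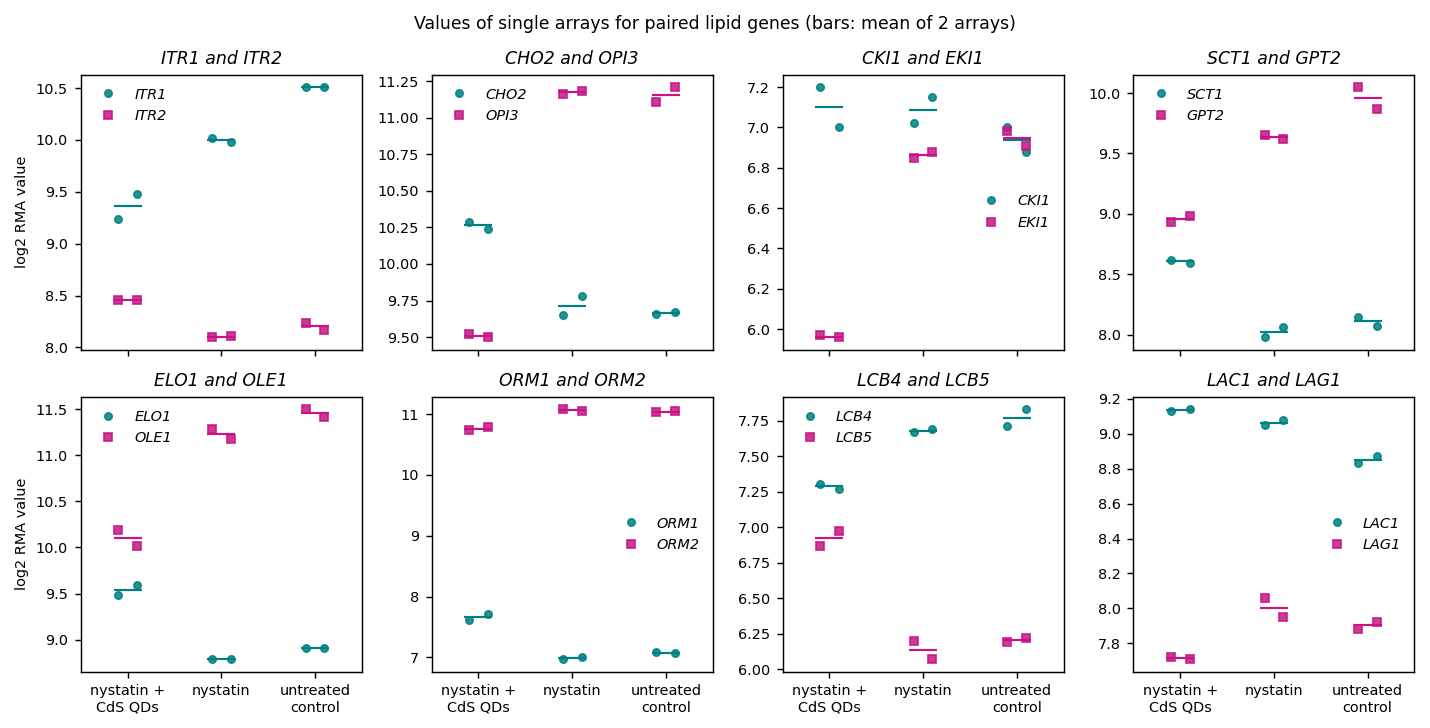
Log2 RMA value on each of the 6 arrays (y axis, points, with bars for the mean of 2 arrays) for pairs of paralogs or linked steps, in nystatin + CdS QDs, nystatin and untreated control. In each panel 1 gene stands higher and its partner lower with nystatin + CdS QDs than in the untreated control, except *CKI1*, whose points overlap; the height of a gene against its partner has no meaning, since they are different probe sets.

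Fatty acid genes had a median log2 fold change of -0.39. *FAS1* and *FAS2* encode the 2 subunits of the cytosolic fatty acid synthase. *FAS1* read 9.70 and 9.72 with nystatin + CdS QDs, 10.62 and 10.58 with nystatin, and 10.57 and 10.53 in the untreated control. *FAS2* read 10.04 and 9.96 with nystatin + CdS QDs, 10.56 and 10.59 with nystatin, and 10.65 and 10.58 in the untreated control. Both subunits fell, with log2 fold changes of -0.84 ± 0.04 for *FAS1* (adjusted p = 3.9e-06) and -0.61 ± 0.05 for *FAS2* (adjusted p = 3.14e-05), and the nystatin arrays lay at or near the control. *OLE1*, the desaturase that makes palmitoleic and oleic acid, read 10.19 and 10.02 with nystatin + CdS QDs, 11.29 and 11.18 with nystatin, and 11.50 and 11.42 in the untreated control. It fell 2.56-fold against the control (-1.36 ± 0.07, adjusted p = 4.34e-06) and 2.19-fold against nystatin (-1.13, adjusted p = 1.07e-05).

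The elongase gene *ELO1*, whose product extends medium-chain acids, was the fatty acid gene that rose. It read 9.48 and 9.59 with nystatin + CdS QDs, 8.79 on both arrays with nystatin, and 8.91 on both arrays of the untreated control (0.63 ± 0.05, adjusted p = 2.97e-05). *ACC1*, the acetyl-CoA carboxylase that supplies malonyl-CoA, fell by 0.19 (adjusted p = 0.0275), a call lost without untreated control replicate 1 (0.17), without nystatin + CdS QDs replicate 2 (0.109), with no moderation (0.107) and with all probe sets of the array (0.103). The acyl-CoA synthetase genes differed. *FAA3* read 6.51 and 6.24 with nystatin + CdS QDs, 6.89 and 6.78 with nystatin, and 6.82 and 6.71 in the untreated control, and it fell by 0.39 (adjusted p = 0.00715; 0.0529 without untreated control replicate 1 and 0.0751 with no moderation). *FAA1* read 11.05 and 11.03 with nystatin + CdS QDs, 10.94 and 10.95 with nystatin, and 11.13 and 11.07 in the untreated control, with a log2 fold change of -0.06 (adjusted p = 0.274).

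The median log2 fold change was 0.14 over the sphingolipid genes. Among the 18, 5 (27.8%, all probe sets 33.4%) changed by at least 0.5 log2 units. These 5, *LCB5*, *YPC1*, *AUR1*, *ORM1* and *LCB3*, rose, and 0 fell by that size. Over all 5498 probe sets 919 rose and 915 fell by that size. *SUR1* (-0.49) and *LCB4* (-0.48) lay just under that size, and they passed it without nystatin + CdS QDs replicate 1 (*SUR1*) and without untreated control replicate 1 (*LCB4*). The absence of falls of that size held for the members only. Of 18 other sphingolipid genes, counted below, 3 rose and 3 fell by at least 0.5 log2 units against the control. Their log2 fold changes ran from -0.82 for *TSC10* (adjusted p = 6.42e-05) to 0.78 for *RSB1* (adjusted p = 4.15e-05). The first enzyme, serine palmitoyltransferase, is encoded by *LCB1* and *LCB2*. *LCB2* fell by 0.25 (adjusted p = 0.00161), and *LCB1* had a log2 fold change of 0.19 (adjusted p = 0.0738; 0.00117 without nystatin + CdS QDs replicate 2). The membrane proteins Orm1 and Orm2 restrain this enzyme. *ORM1* read 7.61 and 7.72 with nystatin + CdS QDs, 6.97 and 7.01 with nystatin, and 7.08 and 7.07 in the untreated control, a rise of 0.59 ± 0.05 (adjusted p = 4.43e-05). *ORM2* read 10.73 and 10.79 with nystatin + CdS QDs, 11.08 and 11.05 with nystatin, and 11.03 and 11.05 in the untreated control, a fall of 0.28 (adjusted p = 0.000937). The paralogs thus took opposite directions, and for each the arrays with CdS QDs lay apart from the other 4.

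Long-chain bases are phosphorylated by the kinases Lcb4 and Lcb5 and dephosphorylated by Lcb3. *LCB4* read 7.30 and 7.27 with nystatin + CdS QDs, 7.67 and 7.69 with nystatin, and 7.71 and 7.83 in the untreated control. *LCB5* read 6.87 and 6.97 with nystatin + CdS QDs, 6.20 and 6.07 with nystatin, and 6.19 and 6.22 in the untreated control. The kinase genes again parted, with a fall of 0.48 for *LCB4* (adjusted p = 0.000148) and a rise of 0.72 ± 0.06 for *LCB5* (adjusted p = 4.18e-05). *LCB3*, the phosphatase gene, read 8.22 and 8.27 with nystatin + CdS QDs, 7.56 and 7.53 with nystatin, and 7.67 on both arrays of the untreated control, a rise of 0.58 ± 0.04 (adjusted p = 2.13e-05). *SUR2*, the hydroxylase that makes phytosphingosine, had a log2 fold change of 0.07 (adjusted p = 0.379).

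Ceramide synthase has the alternative catalytic subunits Lac1 and Lag1. *LAC1* read 9.13 and 9.14 with nystatin + CdS QDs, 9.05 and 9.08 with nystatin, and 8.83 and 8.87 in the untreated control. *LAG1* read 7.72 and 7.71 with nystatin + CdS QDs, 8.06 and 7.95 with nystatin, and 7.88 and 7.92 in the untreated control. Against the control *LAC1* rose by 0.29 (adjusted p = 0.000691) and *LAG1* fell by 0.19 (adjusted p = 0.0139; 0.0811 without untreated control replicate 2 and 0.0571 with all probe sets of the array). *SCS7*, the ceramide hydroxylase gene, rose by 0.40 (adjusted p = 0.000126). Of the ceramidase genes, *YPC1* read 9.79 and 9.82 with nystatin + CdS QDs, 9.13 and 9.23 with nystatin, and 9.09 and 9.11 in the untreated control, a rise of 0.70 ± 0.05 (adjusted p = 1.73e-05). *YDC1* had a log2 fold change of 0.09 (adjusted p = 0.128).

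From ceramide, Aur1 makes inositol phosphorylceramide, Sur1 with Csg2 adds mannose, and Ipt1 adds a further inositol phosphate. *AUR1* read 9.86 and 9.76 with nystatin + CdS QDs, 8.97 on both arrays with nystatin, and 9.11 on both arrays of the untreated control, a rise of 0.70 ± 0.05 (adjusted p = 1.56e-05). The genes of the next steps stood lower: *SUR1* fell by 0.49 (adjusted p = 4.42e-05), *CSG2* fell by 0.24 (adjusted p = 0.00179), and *IPT1* had a log2 fold change of -0.13 (adjusted p = 0.0526). *ISC1*, the phospholipase C that cleaves these inositol sphingolipids back to ceramide, read 7.52 and 7.40 with nystatin + CdS QDs, 6.75 and 6.76 with nystatin, and 7.03 and 7.08 in the untreated control. Here the nystatin arrays were lowest and the arrays with CdS QDs highest, a rise of 0.41 against the control (adjusted p = 0.000344).

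**Figure D3:**
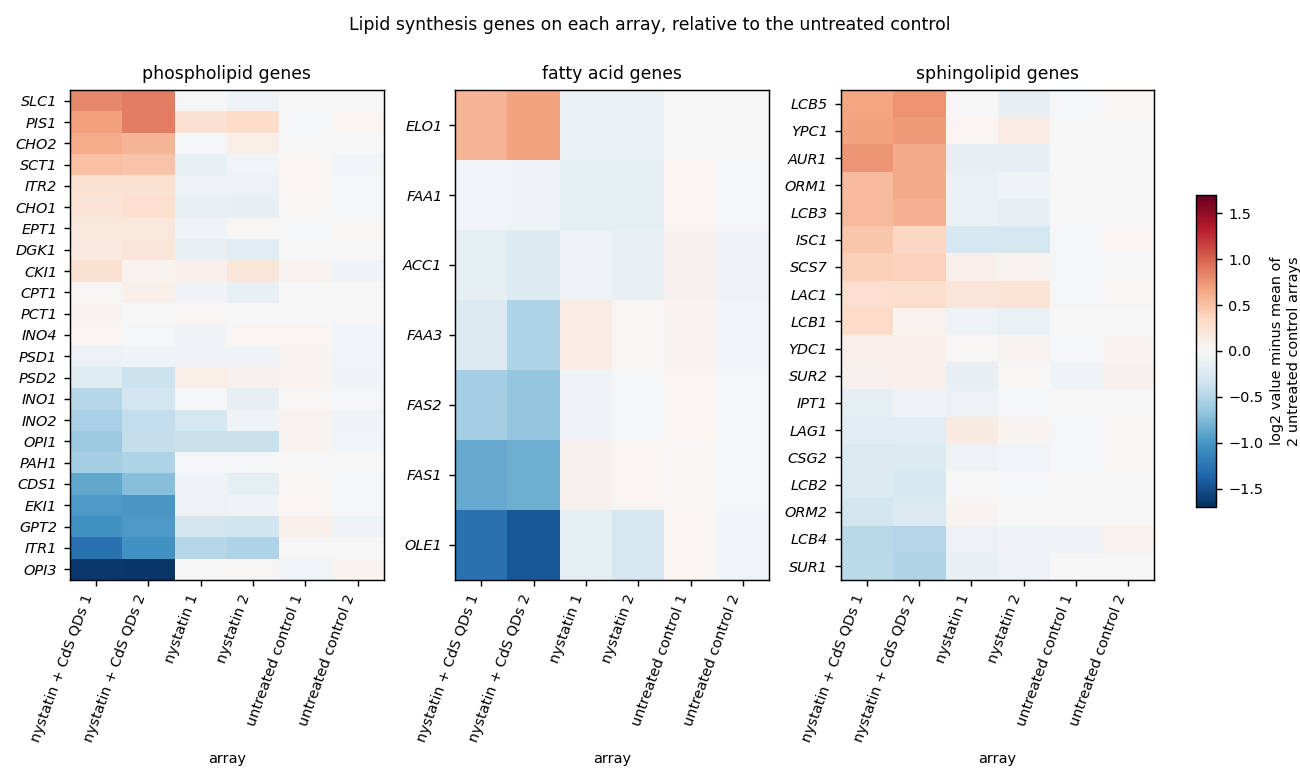
Log2 value of each of the 48 genes on each array minus the mean of the 2 untreated control arrays (colour scale in log2 units, red above and blue below the control). The 2 nystatin + CdS QDs columns resemble each other and carry most of the colour, while the nystatin columns are pale apart from genes such as *ITR1*, *OPI1*, *GPT2*, *ISC1*, *PIS1* and *LAC1*.

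Nystatin alone against the untreated control addressed what the carrier treatment did by itself. Of the 48 members 2 rose (all probe sets: 10.4%) and 5 fell (all probe sets: 11.4%), and 41 did not pass. None reached a log2 fold change of 1 in size with a p under 0.01, where 0.0364% of all probe sets were higher and 0.0728% lower. *PIS1* rose by 0.28 ± 0.07 (adjusted p = 0.0265) and *LAC1* by 0.22 ± 0.04 (adjusted p = 0.0162). The genes that fell were *ITR1* by 0.51 ± 0.08 (adjusted p = 0.00796), *OPI1* by 0.38 ± 0.07 (adjusted p = 0.0151), *GPT2* by 0.32 ± 0.06 (adjusted p = 0.0169), *ISC1* by 0.30 ± 0.05 (adjusted p = 0.0119) and *FAA1* by 0.16 ± 0.04 (adjusted p = 0.0454). *ITR1*, *OPI1* and *GPT2* thus stood below the control under both treatments and *PIS1* and *LAC1* above it, whereas *ISC1* stood below the control with nystatin and above it with nystatin + CdS QDs. Both comparisons use the same 2 control arrays, so a shared direction is no separate support. The 2 control arrays of *GPT2* differed by nearly as much as the lower of them stood above the nystatin arrays.

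These 7 calls relied on the moderated variance, and most were lost whichever array of the 2 compared groups was left out. Their log2 fold changes kept their sign, with *ITR1* at -0.49 without nystatin replicate 2 and *GPT2* at -0.23 without untreated control replicate 1. Without the moderation all 7 were lost, with adjusted p between 0.0523 for *LAC1* and 0.139 for *PIS1*, and likewise when the fit and adjustment took in all probe sets of the array, with adjusted p between 0.0833 for *ITR1* and 0.149 for *FAA1*. Leaving out an array of the nystatin or control group also lost them, with 2 exceptions, *ITR1* without nystatin replicate 1 and *GPT2* without untreated control replicate 2. The adjusted p of *ISC1* then lay between 0.0692 and 0.0848, that of *OPI1* between 0.064 and 0.114, that of *PIS1* between 0.0855 and 0.16, that of *LAC1* between 0.067 and 0.118 and that of *FAA1* between 0.112 and 0.235. The lost values of *ITR1* lay between 0.0585 and 0.0687 and those of *GPT2* between 0.0733 and 0.109.

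With nystatin + CdS QDs against nystatin, 18 members rose (all probe sets: 36.7%), 19 fell (all probe sets: 38.3%) and 11 did not pass. This comparison shares the CdS QDs arrays with the first, so its values stand beside those above and are no separate support for them. Changes of at least 0.5 log2 units were called for 19 members (all probe sets: 32.7%), and *OPI3* and *OLE1* were the 2 lower by at least 1 log2 unit (all probe sets: 4.66%), with 0 higher (all probe sets: 4.87%). The median log2 fold change was 0.01 over the phospholipid genes, -0.46 over the fatty acid genes and 0.10 over the sphingolipid genes.

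The highest log2 fold changes against nystatin were those of *SLC1* (0.88 ± 0.05, adjusted p = 6.25e-06), *AUR1* (0.84 ± 0.05, adjusted p = 7.05e-06) and *LCB5* (0.79 ± 0.06, adjusted p = 2.86e-05). *ISC1* rose by 0.71 against nystatin (adjusted p = 2.34e-05), *ELO1* by 0.75, *LCB3* by 0.70, *ORM1* by 0.67, *YPC1* by 0.62 and *SCT1* by 0.59. On the other side, *EKI1* fell by 0.90, *FAS1* by 0.89, *CDS1* by 0.69, *GPT2* by 0.68, *FAS2* by 0.58 and *PAH1* by 0.51. The partners *LCB4*, *ORM2* and *LAG1* fell by 0.39, 0.30 and 0.29, the first 2 against rises of their paralogs and *LAG1* against a *LAC1* log2 fold change of 0.07 (adjusted p = 0.166). *FAA3* fell by 0.46 (adjusted p = 0.0032; 0.053 with no moderation), and *FAA1* had a log2 fold change of 0.10 (adjusted p = 0.0728).

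Among the remaining members, those that rose against nystatin were *CHO1* by 0.39, *DGK1* by 0.34, *SCS7* by 0.33, *LCB1* by 0.30, *EPT1* by 0.22 and *CPT1* by 0.15. Those that fell were *SUR1* by 0.39, *PSD2* by 0.38, *INO1* and *INO2* by 0.32 each, *LCB2* by 0.23 and *CSG2* by 0.18. *PSD1*, *INO4*, *PCT1*, *CKI1*, *ACC1*, *LAC1*, *YDC1*, *IPT1* and *SUR2* did not pass, with log2 fold changes between -0.08 for *ACC1* and 0.14 for *SUR2*. The call on *INO1* was lost with no moderation (adjusted p = 0.0507). The calls on *INO2* (adjusted p = 0.0156), *CPT1* (0.0239) and *LCB1* (0.0159) were lost with all probe sets of the array (0.0799, 0.0774 and 0.0797). With no moderation those on *INO2* (0.108) and *LCB1* (0.105) were lost too. The calls on *INO2*, *CPT1* and *LCB1* were also lost when a single array was left out. The adjusted p became 0.0939 for *INO2* without nystatin replicate 2 and 0.081 without nystatin + CdS QDs replicate 1. For *CPT1* it became 0.136 without nystatin replicate 2 and 0.0835 without nystatin + CdS QDs replicate 2, and for *LCB1* 0.0604 without nystatin replicate 1 and 0.0746 without nystatin replicate 2.

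**Figure D4:**
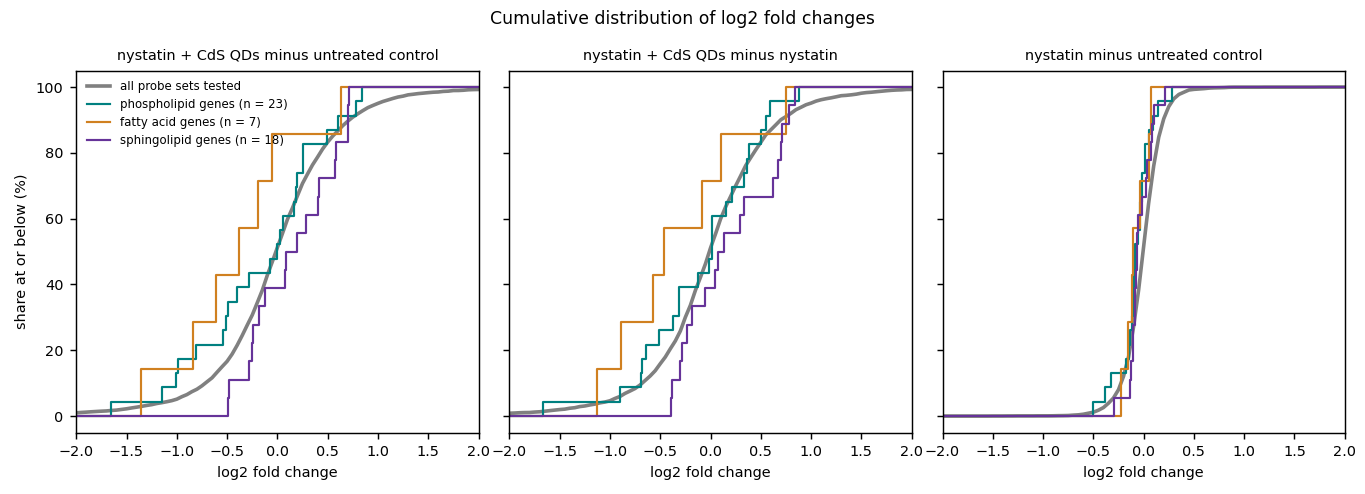
Share of genes (y axis, percent) at or below each log2 fold change (x axis) for the 23 phospholipid, 7 fatty acid and 18 sphingolipid genes and for all 5498 probe sets (grey) in the 3 comparisons. The fatty acid curve lies mostly left of the grey one in both comparisons with CdS QDs (medians -0.39 and -0.46), and in nystatin minus untreated control all curves are steep around 0.

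A further 65 lipid genes, listed by the same pathways and not among the 48, were counted in the comparison of nystatin + CdS QDs with the untreated control. Over all probe sets 36.5% rose, 38.9% fell and the median was -0.01. Of 26 other phospholipid genes 4 rose (15.4%), 15 fell (57.7%) and 7 did not pass, with a median of -0.26. Those with the smallest adjusted p were *PLB2*, *PLB1* and *GIT1*. *PLB2* and *PLB1* encode phospholipases B that strip both acyl chains from phospholipids, and *GIT1* encodes a plasma membrane carrier that takes up glycerophosphoinositol. *GIT1* read 2.93 and 3.27 with nystatin + CdS QDs, 6.71 and 6.67 with nystatin, and 6.35 and 6.53 in the untreated control (-3.34 ± 0.11, adjusted p = 7.23e-07). *PLB2* fell by 1.72 (adjusted p = 5.02e-07) and *PLB1* by 0.99 (adjusted p = 1.46e-06), and against nystatin the log2 fold changes were -3.59 for *GIT1*, -1.47 for *PLB2* and -1.13 for *PLB1*.

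Of 21 other fatty acid genes 7 rose (33.3%, all probe sets 36.5%), 13 fell (61.9%, all probe sets 38.9%) and 1 did not pass, with a median of -0.23. *FAA4* and *FAA2*, acyl-CoA synthetases, fell by 1.96 (adjusted p = 5.26e-07) and 1.59 (adjusted p = 1.06e-06). Both also fell with nystatin alone, by 0.59 (adjusted p = 0.00297) and 0.62 (adjusted p = 0.00239). The alternative fits were summarized for the members only, so these calls were not checked against them. *ELO3*, the elongase of very long chains, rose by 1.06 (adjusted p = 5.94e-06). Of 18 other sphingolipid genes 5 rose (27.8%, all probe sets 36.5%), 9 fell (50%, all probe sets 38.9%) and 4 did not pass, with a median of -0.12. *KEI1*, the regulatory subunit of the Aur1 enzyme, fell by 0.70 (adjusted p = 1.9e-05) where *AUR1* rose. *SLM1*, a TORC2 effector that binds phosphoinositides, fell by 0.81 (adjusted p = 2.13e-05), and *LIP1*, the small subunit of ceramide synthase, rose by 0.54 (adjusted p = 3.39e-05).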

How the data were processed

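RNA from 3 groups was measured on 6 GeneChip Yeast Genome 2.0 arrays. The deposited values are log2 expression values: per the submitters' processing notes, the authors ran RMA in Affymetrix Expression Console (versions not given in the sources used here), which removes background, forces a common distribution on the arrays by quantile normalization and combines the probes of a set. The number of per-sample columns not used was 0. Genes were taken from the platform annotation. All member probe sets carry the suffix of probes unique to a gene.

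Limma 3.58.1 (R 4.3.3) fitted 1 mean per group over all 6 arrays and 5498 probe sets, with 3 residual and 3.80 prior degrees of freedom. Tests were two-sided and Benjamini-Hochberg adjusted over all 5498. Counts at the study's thresholds used a log2 fold change of 1 and a p under 0.01. Background was the 95th percentile of 1746 *S. pombe* probe sets. A run of the fit on simulated data drew independent errors for each array, so it cannot address arrays made from the same extract.

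Values of every array were given for members changed by at least 0.5 log2 units against the control or nystatin, for those called with nystatin alone, and for opposed paralogs, and other lipid genes by the 3 smallest adjusted p of each list. Members, lists and this rule were chosen with earlier results of these data known. Alternatives were no moderation, an intensity trend, only the 4 arrays compared, a replicate block, all probe sets of the array, dim probe sets left out, median centring, repeated quantile normalization, the mean over probe sets, and each array left out. A lone array was assumed to vary like the other groups. The number of arrays limits the precision. Tables were made in Python 3.11.15 with pandas 2.3.3 and numpy 2.4.6, and figures with matplotlib 3.10.9.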

Additional observations from a re-analysis of the deposited data

How the results depend on the processing

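No member's called change reversed its sign under any alternative, and in both comparisons that include CdS QDs the counts over all 48 members stayed within 1.5 times their values. By class, the 5 fatty acid genes that fell against the untreated control became 3 with no moderation and 3 without untreated control replicate 1, and the 1 that rose against nystatin became 2 with no moderation and 2 with an intensity trend (*FAA1*). Against the untreated control, leaving out single arrays gave 16 to 19 members that rose, 18 to 21 that fell and 3 to 5 lower by at least 1 log2 unit, and against nystatin 16 to 18 that rose, 18 to 20 that fell and 2 lower. Nystatin against the untreated control was the unstable comparison. Its 2 rises became 0 with no moderation and 0 with all probe sets of the array in the fit and adjustment, and its 5 falls became 0 in both. The falls numbered 9 with an intensity trend and 8 with only the 4 arrays compared. Leaving out single arrays gave 0 to 2 rises and 0 to 8 falls. Without moderation each test has 3 residual degrees of freedom, and the all-probe-set fit both moderates the variance and adjusts over 10928 probe sets. The cause of the differences between fits was not tested.

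The replicate numbers do not pair the arrays (correlations of replicate 1 deviations between groups were -0.05, 0.01 and 0.02). With the replicate block, 17 members rose and 22 fell for nystatin + CdS QDs against the untreated control, 2 rose and 5 fell for nystatin against the untreated control, and 18 rose and 19 fell for nystatin + CdS QDs against nystatin. Only *IPT1* (adjusted p = 0.0461), *OLE1* (0.0307, nystatin against control) and *FAA1* (0.0629, nystatin against control) crossed the threshold with it. With 2 arrays a group, possibly of the same extract, the precision of every value is limited, and a shift common to all transcripts cannot be seen after RMA.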

Other observations

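The following genes were picked after their values were seen, and no test of a group was made. With nystatin + CdS QDs against the untreated control, the elongation genes of the endoplasmic reticulum *ELO2*, *IFA38* and *PHS1* rose by 0.70, 0.33 and 0.44 (adjusted p = 0.00192, 0.000291 and 0.000869), while *TSC13*, the reductase of the same cycle, fell by 0.21 (adjusted p = 0.0026). Of the genes for mitochondrial fatty acid synthesis, *OAR1* fell by 0.94 (adjusted p = 9.87e-06), *ETR1* by 0.69 (adjusted p = 3.66e-05), *HTD2* and *MCT1* by 0.41 each (adjusted p = 0.000955 and 0.000639), *HFA1* by 0.27 (adjusted p = 0.00617), *PPT2* by 0.24 (adjusted p = 0.00685) and *ACP1* by 0.18 (adjusted p = 0.00963). *CEM1*, the condensing enzyme of that pathway, had a log2 fold change of -0.04 (adjusted p = 0.631). *MGA2*, which activates *OLE1* transcription, rose by 0.59 (adjusted p = 0.000381), and *SPT23*, its paralog, fell by 0.23 (adjusted p = 0.00978), beside the 2.56-fold fall of *OLE1*.

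*HNM1*, the choline and ethanolamine permease, read 7.28 and 7.29 with nystatin + CdS QDs, 7.33 and 7.24 with nystatin, and 7.77 and 7.65 in the untreated control, so that both treatments lay below the control and overlapped each other. Its log2 fold change was -0.42 with nystatin + CdS QDs and -0.43 with nystatin (adjusted p = 0.000432 and 0.00537), and 0.00 ± 0.06 between the treatments. *RSB1*, a putative long-chain base transporter, read 8.78 and 8.91 with nystatin + CdS QDs, 8.45 and 8.48 with nystatin, and 8.14 and 7.99 in the untreated control, and it rose by 0.78 (adjusted p = 4.15e-05) and by 0.40 with nystatin alone (adjusted p = 0.0098). Both genes were chosen after their values were seen, and their calls were not checked against the alternative fits.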
